A study of Mus musculus with 2 samples.

Results

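Genes of the red pulp macrophage and of the haem recycling route that this cell runs were followed in mouse spleen after silica treatment. They were chosen by name, as genes known for these roles, but with earlier results of these data known. Shares over all genes are therefore set beside them as description only. The genes are Spic, Vcam1, Cd163, Cd5l and Treml4 for the identity and surface of the macrophage, and Hmox1, Slc40a1, Slc48a1, Blvra and Blvrb for the handling of haem. All 10 had a probe well above background on both arrays, among 16774 named genes measured on at least 1 array. Gene expression was measured on 2 one-colour Agilent arrays, 1 of a pool of SiO2-remodelled spleens (SiO2) and 1 of a pool of PBS-treated spleens (PBS, phosphate-buffered saline). Each pool held 5 spleens of female mice, harvested at day 19 counted from the first injection. The strain and age of the mice and the dose and form of the silica are not given in the sources used here. Per the labels' protocols, both RNAs were prepared with a blood kit that lyses red and white cells in separate steps, and alpha and beta globin messages were then depleted.

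Red pulp macrophages are the resident phagocytes of the splenic red pulp. They engulf senescent red cells, digest haemoglobin in the phagolysosome, move haem to the cytosol, open the haem ring with haem oxygenase to give biliverdin, carbon monoxide and iron, and return the iron to plasma through ferroportin. Biliverdin is reduced to bilirubin by biliverdin reductase. In mouse, haem itself drives the formation of these macrophages by releasing the Spic gene from the repressor BACH1.

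There was 1 array per group and no replicate, so no test or p-value was possible and the values describe these pools. Each value is the log2 of the processed signal minus the 75th percentile of its array, and each difference is SiO2 minus PBS on that scale. A gene was called at a difference of at least 2-fold, a log2 size of 1. The error given with a difference is technical and comes from the error that the scanner software attached to each spot. It was 0.20 to 0.21 on the log2 scale for 9 members, bright or dim, and 0.25 for Cd163. Each member's probe was printed as 1 spot per array, so this error is not a spread measured for the gene. Among probes with at least 10 spots, the SD of the log2 difference between the arrays was smaller, with a median of 0.059. Both arrays were read in the same scan, per the file headers. In bulk tissue, fewer macrophages and less of a transcript per macrophage cannot be told apart.

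The identity genes were lower in the SiO2 pool, although Vcam1, Cd163 and Treml4 turned above 0 when general macrophage markers were set to 0. Cd163 and Treml4 also did so when lymphocyte markers were set to 0, and Cd163 under normexp background correction. The differences of Cd163 and Treml4 were only 1.47 and 1.44 times their technical error. The haem recycling genes differed in both directions. Spic and Cd5l were called lower, 2 of 10 members, against 3.70% of all genes measured. No member was called higher, against 6.62% of all genes. The log2 difference was below 0 in 7 of 10 members and in 47.7% of all genes. The median of the members was -0.33, beside 0.03 over all genes. All 5 identity genes were below 0, with a median of -0.50. Of the haem recycling genes, 2 were below 0 and 3 above, with a median of 0.24.

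**Figure D1:**
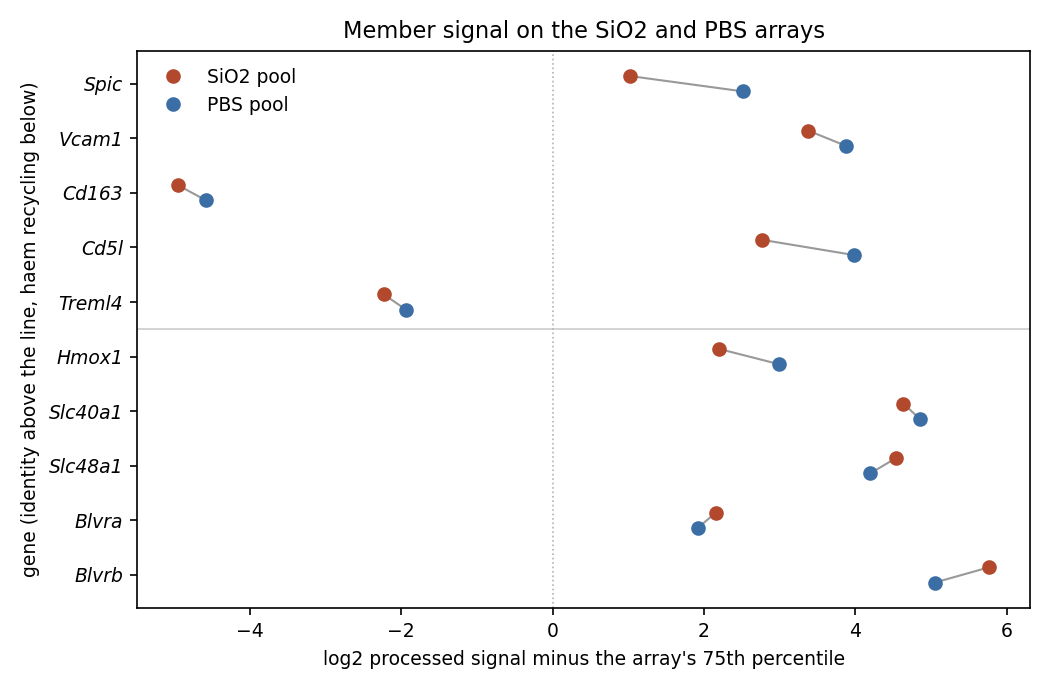
Signal of the 10 members on the SiO2 array (red) and the PBS array (blue), as log2 processed signal minus the 75th percentile of the array (x axis), with the identity genes above the line and the haem recycling genes below it. All 5 identity genes, Hmox1 and Slc40a1 lie further left in the SiO2 pool, and Slc48a1, Blvra and Blvrb lie further right. Levels of different genes come from different probes and cannot be set against each other.

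The promoter windows of Spic and Cd5l, the members called lower, and of Blvrb, the member with the highest difference, are shown to give the sequence in front of these transcripts. They are RefSeq windows of build GRCm38.p6 that run from 250 bases before to 50 bases after the transcript start, 5′ to 3′ on the strand of the gene. Windows were matched by symbol for 6 of the 10 members. Hmox1, Vcam1, Slc40a1 and Slc48a1 had no entry. The Spic window is chr10:88682974-88683273 on the minus strand, the Cd5l window is chr3:87357631-87357930 on the plus strand, and the Blvrb window shown, the first of the 2 entered for that gene, is chr7:27447728-27448027 on the plus strand. Capitals mark matches to the motifs named below.
Spic: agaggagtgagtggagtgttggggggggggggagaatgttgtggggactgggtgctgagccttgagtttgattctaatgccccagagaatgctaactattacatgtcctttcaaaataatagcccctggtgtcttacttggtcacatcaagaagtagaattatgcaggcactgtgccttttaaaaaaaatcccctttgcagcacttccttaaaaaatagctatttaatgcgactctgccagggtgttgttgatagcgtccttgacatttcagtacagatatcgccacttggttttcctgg
Cd5l: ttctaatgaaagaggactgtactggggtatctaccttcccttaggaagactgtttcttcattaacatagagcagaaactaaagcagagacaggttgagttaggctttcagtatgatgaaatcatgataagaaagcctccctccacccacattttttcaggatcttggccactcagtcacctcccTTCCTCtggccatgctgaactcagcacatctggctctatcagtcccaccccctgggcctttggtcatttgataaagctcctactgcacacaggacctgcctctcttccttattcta
Blvrb: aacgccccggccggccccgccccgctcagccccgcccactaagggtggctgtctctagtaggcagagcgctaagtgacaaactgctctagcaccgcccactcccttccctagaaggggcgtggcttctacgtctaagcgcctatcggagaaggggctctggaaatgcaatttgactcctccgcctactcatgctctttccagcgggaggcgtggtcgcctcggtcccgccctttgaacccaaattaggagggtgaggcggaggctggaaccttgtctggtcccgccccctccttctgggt

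Both strands of each window were searched for 3 motifs, the core GAGGAA bound by PU.1 and its relatives, the antioxidant response element core TGACNNNGC bound by NRF2 and BACH1 with small MAF proteins, and the erythroid GATA site AGATAA. The Cd5l window held 1 PU.1 core, on its minus strand at an offset of -66 from the start. The Spic window and both Blvrb windows held none of the 3 motifs. Of the windows not shown, Treml4 had 2 PU.1 cores, Blvra had 1 antioxidant response element core and Cd163 had none. Among 32851 promoter windows of the same length, 28.3% held the PU.1 core, 12.4% the antioxidant response element core and 11.2% the GATA site. No match says only that these letters are not in the window.

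Spic encodes the transcription factor of the PU.1 family on which red pulp macrophages depend. Its signal was 955 in the SiO2 pool and 3814 in the PBS pool before scaling. After scaling it was 1.02 in the SiO2 pool and 2.51 in the PBS pool. Spic was thus 2.80-fold lower in the SiO2 pool, with a log2 difference of -1.49 ± 0.20 (technical error), which is 7.28 times that error. This was the lowest difference among the members, and 1.25% of all genes had a lower one.

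Cd5l encodes a secreted scavenger protein of macrophages, also called AIM, and is a target of the nuclear receptor LXR. It had a signal of 3190 in the SiO2 pool and 10585 in the PBS pool, and a scaled value of 2.76 in the SiO2 pool and 3.98 in the PBS pool. Cd5l was 2.33-fold lower in the SiO2 pool (log2 difference -1.22 ± 0.20, technical error), and 2.19% of all genes had a lower difference. Spic and Cd5l therefore lay in the low tail of all differences, while the other identity genes stayed within 2-fold.

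Vcam1 encodes an adhesion molecule that red pulp macrophages carry and that endothelial and stromal cells also make. Its brighter probe read 4878 in the SiO2 pool and 9839 in the PBS pool. The scaled difference was -0.50 ± 0.20 (technical error), or 1.41-fold lower in the SiO2 pool. A dimmer probe for Vcam1 read 213 in the SiO2 pool and 465 in the PBS pool, with a difference of -0.61, so both probes had the same sign.

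Cd163, the receptor that takes up haemoglobin bound to haptoglobin, and Treml4, a receptor of splenic macrophages and dendritic cells that binds dead cells, were both dim. Cd163 read 15.2 in the SiO2 pool and 28.1 in the PBS pool, with a difference of -0.37 ± 0.25 (technical error). That difference was 1.47 times its error and turned to 0.20 under normexp background correction. Treml4 read 99.96 in the SiO2 pool and 175 in the PBS pool, with a difference of -0.30 ± 0.21 (technical error). For these dim genes the pools were thus separated by little more than the technical error.

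Slc48a1 encodes HRG1, the transporter that carries haem out of the phagolysosome. It read 10885 in the SiO2 pool and 12277 in the PBS pool before scaling. After scaling it was 4.54 in the SiO2 pool and 4.20 in the PBS pool. Its scaled difference was 0.34 ± 0.20 (technical error). The sign depended on the scaling, since without scaling the log2 difference was -0.17.

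Hmox1, the inducible haem oxygenase, read 2157 in the SiO2 pool and 5327 in the PBS pool on its brighter probe. It was 1.73-fold lower in the SiO2 pool, with a scaled difference of -0.79 ± 0.20 (technical error), and 6.66% of all genes had a lower difference. Its dimmer probe read 200.1 in the SiO2 pool and 593 in the PBS pool, and gave -1.06, which lies past 2-fold. The call for Hmox1 thus depended on the probe, while both probes had the same sign. The constitutive haem oxygenase Hmox2 had a difference of -0.12.

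Blvra and Blvrb encode the enzymes that act on biliverdin. Blvra, which makes the bilirubin of adult bile, read 2092 in the SiO2 pool and 2529 in the PBS pool, with a scaled difference of 0.24 ± 0.20 (technical error), and its second probe gave 0.22. Without scaling the Blvra difference was -0.27. Blvrb, which also reduces flavins and is abundant in red cells, read 25563 in the SiO2 pool and 22203 in the PBS pool. Its scaled difference was 0.72 ± 0.20 (technical error), or 1.64-fold higher in the SiO2 pool, and 88.3% of all genes had a lower one. Blvrb was the only member whose signal was higher in the SiO2 pool both before and after scaling.

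Slc40a1 encodes ferroportin, the iron exporter through which recycled iron leaves the macrophage. It read 11636 in the SiO2 pool and 19310 in the PBS pool, with a scaled difference of -0.22 ± 0.20 (technical error), or 1.16-fold lower in the SiO2 pool. This difference was 1.07 times its technical error.

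**Figure D2:**
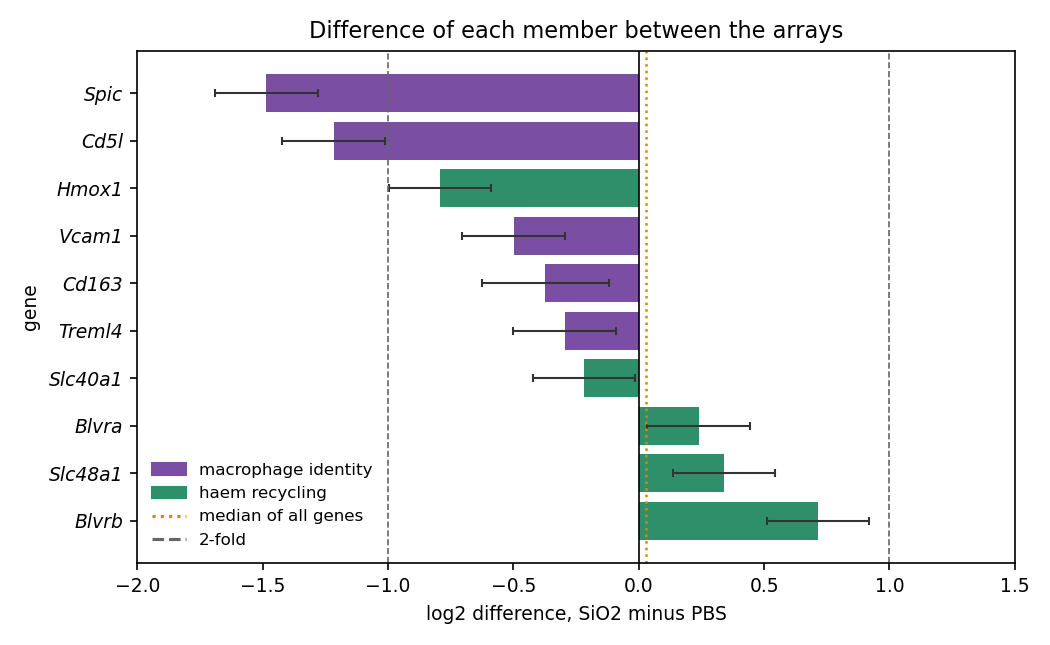
Log2 difference of each member, SiO2 minus PBS (x axis), with identity genes in purple, haem recycling genes in green and error bars for the technical error of the difference. The dotted line is the median of all genes (0.03) and the dashed lines mark 2-fold. Only Spic (-1.49) and Cd5l (-1.22) pass 2-fold, and Blvrb (0.72) is highest.

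Most markers of macrophages in general were also lower in the SiO2 pool. Of 11 pan-macrophage markers measured, 9 were below 0 and 2 of 11 were called lower, with a median of -0.57. In the authors' deposited values, 6 of these markers were present, with a median of -0.27 and 1 called lower. Their summed signal, in multiples of the 75th percentile of the array, was 52.2 in the SiO2 pool and 87.6 in the PBS pool, and all 11 were above background on both arrays. The Fc receptor Fcgr1 read 99.0 in the SiO2 pool and 571 in the PBS pool, a 4.04-fold lower value, and Aif1 was 2.83-fold lower. The signal regulatory receptor Sirpa (-0.57) was at the median. The 2 markers above 0 were Itgam (0.59) and Lyz2 (0.45), named after their values were seen. Adgre1, which encodes the F4/80 antigen and was chosen after its values were seen, gave -0.94 on its brightest probe, but -0.30 on its other probe and -0.30 in the authors' deposited values. Cd68 had no named probe.

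When the median of these 11 markers was set to 0, Spic was at -0.91 and Cd5l at -0.64, and neither passed 2-fold. On that scale Vcam1 was at 0.07, Treml4 at 0.28, Slc40a1 at 0.35 and Hmox1 at -0.22, so that Spic, Cd5l and Hmox1 were the 3 members below 0. Slc48a1 was at 0.91, Blvra at 0.81 and Blvrb at 1.29 on the same scale. These centred values depend on the choice of markers and probes. The shift of 0.57 rests on the brightest probes of 11 markers. In the authors' deposited values the 6 markers present had a median nearer 0, at -0.27, and the centring was not repeated there. The part that the level of macrophage markers has in the differences of the members was not tested further.

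Other genes known from red pulp macrophages went the same way as the identity genes. All 12 measured were below 0 on their brightest probes, between -0.96 and -0.04, and none was called. The other Zeb2 probe was at 0.04. The median was -0.68, or -0.11 with the pan-macrophage markers at 0. Under normexp and cyclic loess 1 was called lower. After quantile normalization and with the median of the array 2 were called lower. Nearest the median were the nuclear receptors Pparg (-0.69) and Nr1h3 (-0.66). The integrin Itgad, known from red pulp macrophages and named after its values were seen, read 1726 in the SiO2 pool and 4800 in the PBS pool, a difference of -0.96. In the PU.1 family, Spic had the largest difference. The related Spib, which B cells and plasmacytoid dendritic cells express, was at -0.77, and Spi1, PU.1 itself, read 31.9 in the SiO2 pool and 60.8 in the PBS pool, at -0.42, while under normexp Spi1 was at -0.0065. The factor Cebpb was at -0.51. The macrophage growth factor Csf1 was at -0.92 and its receptor Csf1r at -0.79 on their brightest probes, both named after their values were seen. The 3 probes of Csf1r ranged from -0.79 to -0.13.

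Most genes of macrophages of other niches were also below 0. Of 5 genes of marginal zone and metallophilic macrophages, 3 were below 0, with a median of -0.49. The 1 of 5 called lower was the sialic acid receptor Siglec1, at -1.52. It read 52.1 in the SiO2 pool and 213 in the PBS pool. Its other probe gave -0.94 and normexp gave -0.80, under which none of the marginal zone genes was called. The scavenger receptor Marco was at -0.49. The lectin Cd209b (0.66) and Msr1 (0.33), named after their values were seen, were above 0 and dim. Cd209b read 39.8 in the SiO2 pool and 36.0 in the PBS pool, and Msr1 read 74.2 and 84.1. Nr1h3 is also among the red pulp genes above, and Marco is also among the Kupffer cell genes. Of the Kupffer cell genes, Clec4f was not above background on either array, and Vsig4, which was above background in the PBS pool alone, was at least 2.47-fold lower in the SiO2 pool. Under normexp, Vsig4 was at 0.01. The complement gene C6 read 31.0 in the SiO2 pool and 93.4 in the PBS pool, a difference of -1.08 that was -0.23 under normexp. With Cd5l these made 3 of 6 Kupffer cell genes called lower, with 5 of 6 below 0 and a median of -0.78. Under normexp 1 of the 6 was called lower and the median was -0.32, and over the 5 genes above background on both arrays it was -0.49.

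Receptors and bridging proteins through which red cells and dying cells are recognised had a median of -0.24 over 14 genes, with 1 of 14 called lower and none higher. The phosphatidylserine receptor Havcr2 (TIM-3) was the gene called, at 349 in the SiO2 pool and 1225 in the PBS pool, 2.46-fold lower. The receptor tyrosine kinase Axl (-0.28) and the integrin chain Itgav (-0.19) were nearest the median. Cd47, the signal on red cells that tells macrophages not to engulf them, was at 0.63 and its receptor Sirpa was at -0.57, both named after their values were seen.

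Genes that scavenge or move haem outside the members had a median of -0.06 over 10 genes, and 2 of 10 were called higher. These were Abcb6, a porphyrin transporter, at 2273 in the SiO2 pool and 894 in the PBS pool (3.63-fold higher), and Abcg2, an exporter of haem and porphyrins, at 2.89-fold higher. Pgrmc1 (0.01) and Hmox2 were nearest the median. Por, the reductase that passes electrons to haem oxygenase, was at -0.81 and was named after its value was seen. Fech, which inserts iron into protoporphyrin to form haem, was 3.23-fold higher. It was listed with the electron donor and pigment disposal genes, although its step is haem synthesis, and was the only 1 of the 5 listed genes called. With Fech counted, that list had a median of 0.18, with the exporter Abcc1 at 0.18 and the reductase Cyb5r3 at 0.77 (0.12 on its other probe).

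Iron handling genes that act after haem breakdown had a median of 0.25 over 16 genes, with 2 of 16 called higher and none lower. The transferrin receptor Tfrc was 4.42-fold higher and the ferrireductase Steap3 was 2.09-fold higher on its brightest probe. The other Steap3 probe was at 0.84, and Steap3 was at 0.88 under normexp and at 0.76 in the authors' deposited values, all short of the 2-fold call. Under normexp the list had 1 gene called higher and 1 called lower, which was the iron carrier Trf at -1.02. Tfrc and Steap3 both serve iron uptake in erythroid cells, and Tfrc is also among the erythroid markers below. The ferritin heavy chain Fth1 was at 0.28 and the iron chaperone Pcbp2 at 0.22 (-0.15 on its other probe), both near the median on their brightest probes. Of the 16 genes, 10 were above 0 and 6 below. The phagosomal metal transporter Slc11a1 was at -0.77 and transferrin, Trf, at -0.96. Trf is also among the other red pulp macrophage genes above. Slc11a2 (0.83), Slc39a8 (0.73) and Ncoa4 (0.63) went the other way. These genes were named after their values were seen. Hamp, which encodes hepcidin, was not above background on either array.

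Regulators and targets of the BACH1 and NRF2 pathway, to which Hmox1 belongs, differed in both directions. Of 13 measured, 3 were called higher and 1 of 13 lower, with a median of 0.02. The glutathione synthesis genes Gclm and Gclc were 2.59-fold and 2.26-fold higher and the quinone reductase Nqo1 was 2.45-fold higher. Maff, a small MAF protein, was 2.26-fold lower, and normexp gave it a log2 difference of -0.70. Nfe2l2, which encodes NRF2, and Prdx1 were both at 0.02 (0.55 on the other Prdx1 probe), and Bach1, named after its value was seen, was at -0.17.

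**Figure D3:**
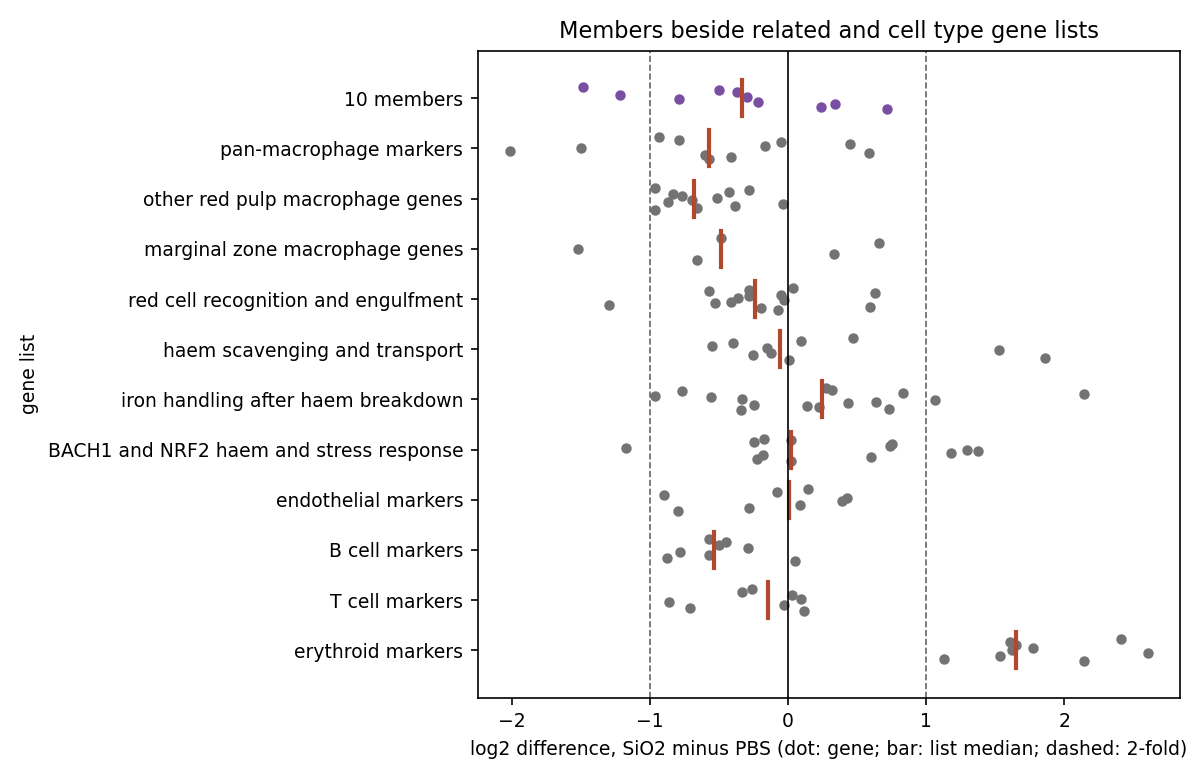
Log2 difference, SiO2 minus PBS (x axis), of the 10 members (purple) and of the genes of 11 related or cell type lists (grey), 1 dot per gene, with the list median as a red bar and dashed lines at 2-fold. The members have a median of -0.33, other red pulp macrophage genes -0.68, pan-macrophage markers -0.57 and erythroid markers 1.65.

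Red cell precursors use several of the haem recycling genes themselves, so erythroid markers were read beside Blvrb, Slc48a1 and Slc40a1. All 9 measured, Tfrc among them, were called higher, with a median of 1.65. Their summed signal was 200.3 in the SiO2 pool and 62.7 in the PBS pool, in multiples of the 75th percentile. Nearest the median were the transcription factor Klf1 (1.65) and the anion exchanger Slc4a1 (1.62). Epb42, a protein of the red cell membrane, was highest at 2.60. The part of erythroid RNA in the values of Blvrb, Slc48a1 and Slc40a1 was not tested.

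Markers of the other cells that make Vcam1 differed among themselves. The 8 endothelial markers had a median of 0.00 with none called, Cdh5 (-0.08) and Vwf (0.09) being nearest it, and their summed signal was 14.2 in the SiO2 pool and 18.6 in the PBS pool. They ran from -0.90 (Kdr, 0.32 on its other probe) to 0.42 (Tek), both named after their values were seen. The 7 stromal markers measured had a median of -0.88, with 1 of 7 called lower, the chemokine Cxcl13 at 2.39-fold lower, Pdpn (-0.88) and Acta2 (-0.91) nearest the median, and a summed signal of 11.7 in the SiO2 pool and 19.2 in the PBS pool. In the authors' deposited values the medians were -0.22 over 6 endothelial markers and -0.58 over 7 stromal markers. With the mean over probes they were 0.01 and -0.64. The part of stromal RNA in the Vcam1 value was not tested. Lymphocyte markers, which check the tissue, were above background on both arrays in 8 of 8 B cell and 8 of 8 T cell genes, with medians of -0.54 and -0.15 and with Cd79a at -0.50 and Cd3d at -0.26. Monocyte genes had a median of -0.74 over 6 measured, with 1 of 6 called higher, the transglutaminase F13a1 at 2.04-fold, which was at 0.86 (log2) under normexp. The chemokine receptor Ccr2 (-0.78) was near the monocyte median. Neutrophil markers had a median of 1.60, with 5 of 7 called higher (Ngp, Ltf, Camp, Elane and Mpo), and hepatocyte markers had a median of 0.00 with 0 of 4 called.

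The direction of several members depended on how the arrays were brought to 1 scale, and that of Cd163 also on the background correction. Spic, Cd5l and Hmox1 were below 0 under all 11 alternatives tried, Spic between -1.998 and -0.91, Cd5l between -1.73 and -0.64 and Hmox1 between -1.30 and -0.22. Blvrb was above 0 under all 11, between 0.20 and 1.29. Not every alternative could move these values. All members were above background on both arrays, so removing the filter or requiring background on both arrays left them unchanged. The mean over probes could not change Spic, Cd5l and Blvrb, which have a single probe each. Vcam1 was above 0 under 1 alternative, Treml4 and Slc40a1 under 2 each and Cd163 under 3, and Slc48a1 and Blvra were below 0 without scaling.

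**Figure D4:**
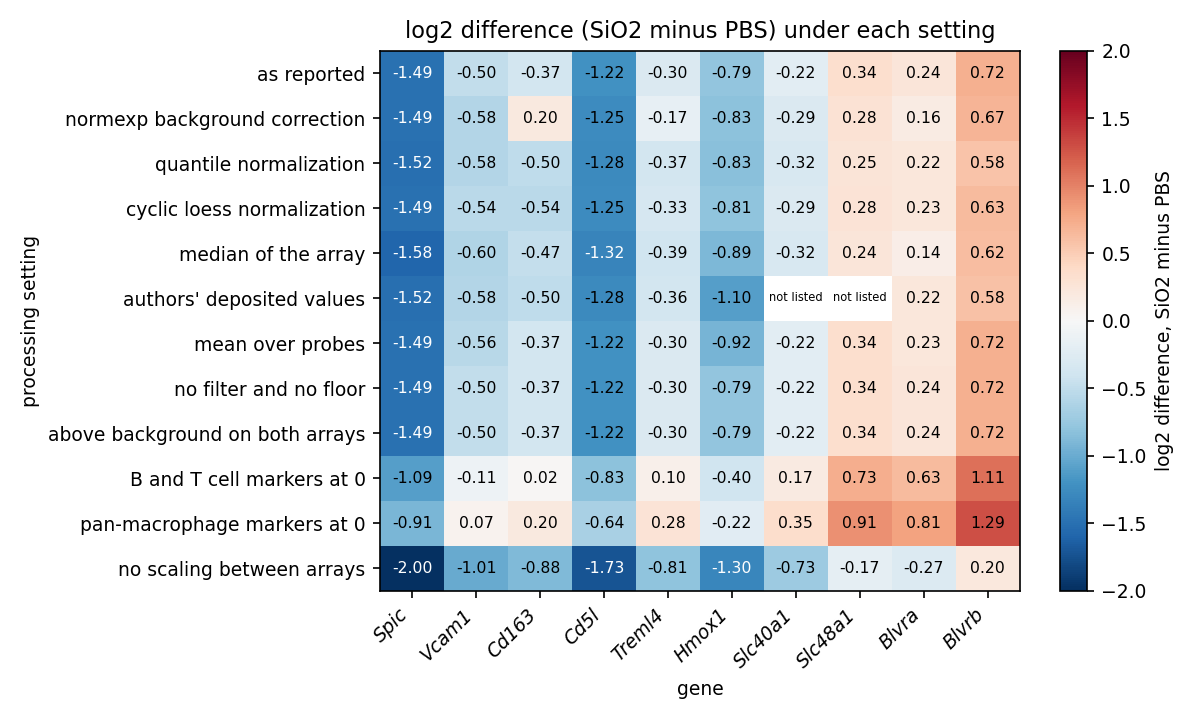
Log2 difference, SiO2 minus PBS, of each member (columns) under each processing setting (rows), coloured by value and printed in each cell, where not listed marks genes without a row in the authors' deposited values. Spic, Cd5l and Hmox1 are below 0 and Blvrb is above 0 in every row, while the other members change sign in at least 1 row.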

How the data were processed

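RNA of 2 spleen pools was labelled with Cy3 and hybridised to 1 Agilent array each. Spot intensity in the deposited scanner output is linear and was background-subtracted by Agilent Feature Extraction 11.0.1.1, per the file headers (9.1 per the submitters' processing notes). The value table that the authors deposited gives log2 expression of the same arrays for part of the probes, with a normalization not given in the sources used here. Its differences for Spic (-1.52), Vcam1 (-0.58) and Blvra (0.22) were the same as after quantile normalization. The deposited values and quantile normalization are therefore not independent alternatives. From each array of 43020 spots that were not controls, 148 (SiO2) and 145 (PBS) with outlier flags were left out, and no spot was saturated. The processed intensity was taken to log2 and its 75th percentile subtracted (a signal of 469 for SiO2 and 670 for PBS). Spots well above background made up 74.9% (SiO2) and 75.5% (PBS). Among 206 probes with at least 10 spots, the SD of the log2 difference between the arrays had a median of 0.059.

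Probes were named by accession through the RefSeq table of GRCm38.p6, used for names only. Of 39398 probes, 27217 matched 1 symbol. The brightest probe above background on at least 1 array stood for a gene, and a dim value was raised to the lowest value above background on its array. Members and lists were chosen with earlier results of these data known. In the lists, genes at least 2-fold different and the 2 nearest the median were named (fewer in lists of other cell types), and others are marked where they appear. A few genes taken by this rule are left out of the text. No genes of like pattern were sought, since 2 arrays give a single difference. Tools were Python 3.11.15, R 4.3.3 and limma 3.58.1 (normexp with offset 50, quantile, cyclic loess), and the calculation was tested on simulated data. The 10 alternatives listed first and 1 added after seeing the data are given in the closing section. The number of arrays limits the precision.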

Additional observations from a re-analysis of the deposited data

How the results depend on the processing

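Under all alternatives the number of members called lower stayed at 2, with the exceptions below. Where it stayed at 2, between 1.71% and 4.81% of all genes were called lower. Removing the filter or requiring background on both arrays could not change the value of any member. The authors' deposited values list 8 of the members and hold only the dimmer Hmox1 probe. There the number was 3, against 4.71% of all genes. With the B and T cell markers at 0 it was 1, against 1.52% of all genes. With the pan-macrophage markers at 0 it was 0, against 0.978%. Without scaling between arrays, an alternative chosen after seeing the data, it was 4 (Spic, Cd5l, Hmox1 and Vcam1), against 16.1%. The number called higher was 1 (Blvrb) with the B and T cell markers at 0, where 15.0% of all genes were called higher. It was 1 with the pan-macrophage markers at 0, where 23.0% of all genes were called higher. Otherwise it was 0, against 2.43% to 8.03% of all genes. The median of the members was -0.23 under normexp, -0.44 after quantile normalization, -0.43 after cyclic loess, -0.43 with the median of the array, -0.54 in the deposited values and -0.85 without scaling. It changed sign to 0.057 with the B and T cell markers at 0 and to 0.24 with the pan-macrophage markers at 0. These centrings add 0.39 and 0.57 to every difference by construction.

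The median over all genes was 0.03 as reported, 0.15 under normexp, 0.42 and 0.60 under the lymphocyte and macrophage centrings and -0.48 without scaling. Over all 16774 genes, 1111 were called higher and 620 lower as reported. These counts were 617 and 286 under normexp, 910 and 806 with the median of the array and 2523 and 255 under the lymphocyte centring. They were 3862 and 164 under the macrophage centring and 407 and 2693 without scaling. With no filter they were 1659 and 882 of 20649 genes. No paired analysis was possible because each group has 1 array. For the same reason no array was left out. Cd163 and Spi1 lie near background, where the size of a difference depends on the background correction.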

Other observations

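The receptor families of Treml4 and of Cd163 and Cd5l were read as well. Among 7 genes of the TREM-like family and its adaptor, 1 of 7 was called higher and 1 of 7 lower. Trem2, a lipid-sensing receptor of phagocytes, read 1056 in the SiO2 pool and 193 in the PBS pool, a log2 difference of 2.96. Treml2 read 309 in the SiO2 pool and 1099 in the PBS pool, a difference of -1.32, with -0.91 on its other probe. Treml4 and the platelet receptor Treml1 were nearest the median, at -0.30 and -0.29. The adaptor Tyrobp, through which several of these receptors signal, was at -0.60 and was named after its value was seen.

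Among 8 genes with scavenger receptor cysteine-rich domains, 7 were below 0 and Cd5l was the 1 called lower, with a median of -0.38. Scara5, a ferritin receptor, was at -0.39 with a dim signal of 13.8 in the SiO2 pool and 25.6 in the PBS pool, and was at 0.28 under normexp. Cd163l1 was at -0.69, or -0.22 under normexp, and was named after its value was seen. Of 7 adhesion genes read beside Vcam1, none was called. The integrin chain Itgb7 was lowest at -0.98. It passed 2-fold under normexp (-1.04) and in the authors' deposited values (-1.01). After quantile normalization and with the median of the array, 1 of the 7 genes was also called lower. Both chains of the main integrin partner of Vcam1, Itga4 (0.27) and Itgb1 (0.76), were above 0. Icam1 (-0.45) and Icam2 (-0.71), nearest the median of -0.45, were below 0. Under normexp Icam1 was at -0.16, and the list's median was -0.16 under normexp and -0.19 with the mean over probes. Itga4, Itgb1 and Itgb7 were named after their values were seen.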
